A study of Mus musculus with 11 samples.

Results

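Notch receptors, ligands and targets were followed across mouse gastric tumours and normal stomach lining by 10 genes: the receptors Notch1, Notch2, Notch3 and Notch4, the ligands Jag1, Jag2, Dll1 and Dll4, and the target genes Hes1 and Hey1. Each gene was read from the probe set that carries its symbol alone, and all 10 were found among the 19938 genes of the table, each with 1 such probe set. A further 6 probe sets that name Notch4 together with Sympk were not used. The series held 11 Affymetrix arrays, 1 per sample, and the values are normalised log2 signals, so a difference of 1 is a 2-fold change. The 4 pChePS_GC samples were gastric cancer tissue of mice with the Pdx-1-Cre transgene, 1 floxed Cdh1 allele (Cdh1F/+) and the alleles Trp53F/F and Smad4F/F. The 3 pCP_GC samples were gastric cancer tissue of mice with the same transgene and the alleles Cdh1F/F and Trp53F/F. The histology of both was given as diffuse-type. The 4 NGE samples were normal gastric epithelium of mice that lacked Cre, so both tumour groups share the Cre transgene and the floxed Trp53 and Cdh1 alleles, and the normal mice carried no Cre. Cre follows the Pdx-1 promoter, which is known to be active in the pancreas, the duodenum and the distal stomach, and recombination is limited to cells that have used it. The labels give no ages and do not state that each sample is a different mouse, so p-values here reflect only how far the deposited samples of a group lie apart, which may be technical.

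Notch signalling passes between touching cells. A ligand of the Delta-like or Jagged family on one cell binds a Notch receptor on its neighbour, the receptor is cut by the metalloprotease ADAM10 and then by gamma-secretase, and the freed intracellular part enters the nucleus, where it joins the DNA-binding protein RBPJ and a Mastermind-like coactivator to switch on genes such as Hes1 and Hey1, which encode transcriptional repressors. In the stomach the pathway is known to keep gland progenitors dividing and to hold back secretory differentiation. In blood vessels Dll4, Notch1, Notch4 and Hey1 act in the endothelium, and Notch3 acts in the pericytes and smooth muscle cells around it.

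Over all 35556 probe sets the array medians lay between 7.63 and 7.81. Over the 19938 genes fitted, the medians differed between NGE and the tumour groups. Centring each array on its median over these genes moved the changes by -0.175 in pChePS_GC and by -0.214 in pCP_GC against NGE. Pairs of arrays correlated across genes at r = 0.962 to 0.978 in pChePS_GC, 0.972 to 0.988 in pCP_GC and 0.990 to 0.994 in NGE. Precision is limited by the number of arrays. Xist, the RNA of the inactive X chromosome, read between 5.72 and 6.02 in pChePS_GC, between 5.57 and 5.81 in pCP_GC and between 11.54 and 12.66 in NGE, and the Y-linked gene Eif2s3y read 9.21 to 11.09, 8.08 to 10.01 and 4.94 to 5.19 in the same groups. A difference of either tumour group from NGE therefore cannot be told apart from one between samples of opposite sex-linked levels. The labels name epithelium for NGE and gastric cancer tissue for the tumours.

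The Delta-like ligands Dll1 and Dll4, the receptors Notch1 and Notch3 and the target Hey1 rose in both tumour groups against NGE. The rises were of 1.38-fold to 2.81-fold in pChePS_GC and of 1.24-fold to 1.85-fold in pCP_GC, and Dll1 had the largest rise of the 10 genes in both. The other target, Hes1, fell in pChePS_GC and did not pass in pCP_GC. Notch4 fell in pCP_GC and did not pass in pChePS_GC. Notch2, Jag1 and Jag2 passed in neither. These are the values as deposited, and when arrays were centred on their medians or quantile normalised, Hey1 alone of the 5 rises still passed in pCP_GC and all 5 did in pChePS_GC, with no change of direction. In these bulk samples fewer cells of a type and less RNA per cell cannot be told apart.

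A gene passed at an adjusted p under 0.05 in a limma fit over all 19938 genes. In pChePS_GC against NGE 5 of the 10 members were higher and 1 was lower, where 18.7% of all genes were higher and 23.4% were lower (42.1% in either direction). In pCP_GC against NGE 5 of 10 were higher and 1 was lower, where 20.0% of all genes were higher and 31.8% were lower (51.8% in either direction). Both comparisons use the same NGE arrays. The 6 calls in pCP_GC fell to 2 or 3 when any 1 NGE or pCP_GC array was left out. The count of 6 called members therefore lay near the background in either comparison, and of the genes called in all, fewer were higher than lower, while more members were higher than lower as deposited. In pCP_GC this turned round with centring and with quantile normalisation, where 1 member was higher and 2 were lower. The median change of the members was 0.45 in pChePS_GC and 0.35 in pCP_GC, against -0.10 and -0.12 over all genes. The arrays of the groups did not overlap for 5 members in pChePS_GC against NGE, where 40.6% of all genes did not, and for 7 members in pCP_GC against NGE, where 59.6% did not.

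**Figure D1:**
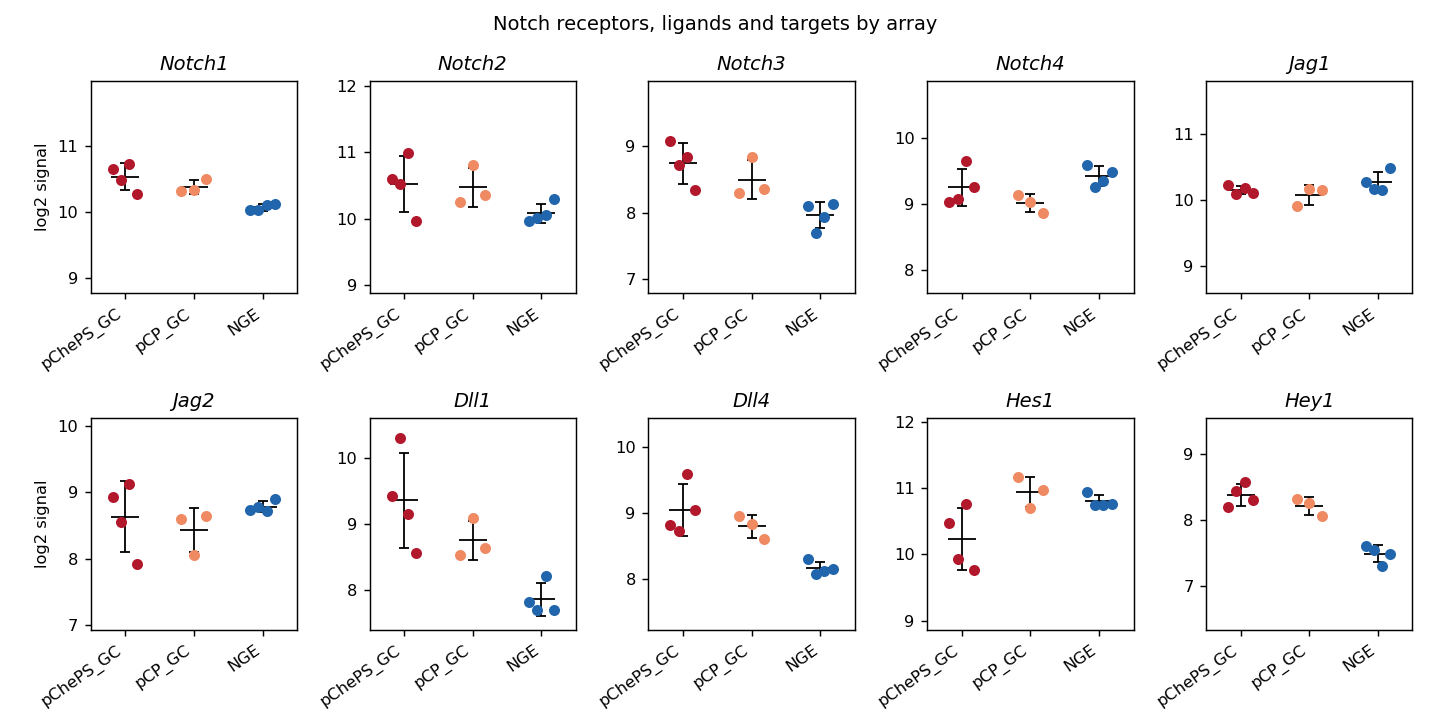
Log2 signal (vertical axis) of the 10 genes on each array, in pChePS_GC (4 points), pCP_GC (3 points) and NGE (4 points), with the mean and SD as bars. All panels span the same number of log2 units, and the tumour arrays of Dll1, Dll4, Notch1, Notch3 and Hey1 all lie above the NGE arrays, while those of Notch2, Jag1 and Hes1 overlap with them.

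The promoters shown are those of the 4 members that rose in both tumour groups as deposited and have an entry in the RefSeq promoter table (GRCm38.p6). Each runs 5′ to 3′ on the gene's strand, from 250 bases before the transcription start to 50 bases after it. Capitals mark the N-box CACNAG, searched on both strands, a motif known to be bound by the repressor HES1.
Dll1, chr17:15376883-15377182, minus strand: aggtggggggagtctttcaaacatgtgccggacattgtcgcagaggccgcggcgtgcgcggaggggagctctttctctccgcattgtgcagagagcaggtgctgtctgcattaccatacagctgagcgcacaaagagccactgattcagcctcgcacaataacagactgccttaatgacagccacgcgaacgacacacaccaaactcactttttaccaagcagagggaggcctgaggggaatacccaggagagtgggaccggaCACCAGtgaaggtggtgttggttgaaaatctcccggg
Dll4, chr2:119325534-119325833, plus strand: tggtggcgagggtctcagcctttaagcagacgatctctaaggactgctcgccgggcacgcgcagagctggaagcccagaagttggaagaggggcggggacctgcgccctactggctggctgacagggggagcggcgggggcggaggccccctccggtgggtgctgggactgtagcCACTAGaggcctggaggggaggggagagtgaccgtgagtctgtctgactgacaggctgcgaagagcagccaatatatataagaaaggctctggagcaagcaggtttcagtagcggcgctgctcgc
Notch1, chr2:26503773-26504072, minus strand: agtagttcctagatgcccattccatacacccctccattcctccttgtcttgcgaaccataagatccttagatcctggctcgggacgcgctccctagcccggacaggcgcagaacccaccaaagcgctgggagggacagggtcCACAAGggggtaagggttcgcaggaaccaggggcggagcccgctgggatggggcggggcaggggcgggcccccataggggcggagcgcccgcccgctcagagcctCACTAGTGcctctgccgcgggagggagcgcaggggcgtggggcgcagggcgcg
Notch3, chr17:32166841-32167140, minus strand: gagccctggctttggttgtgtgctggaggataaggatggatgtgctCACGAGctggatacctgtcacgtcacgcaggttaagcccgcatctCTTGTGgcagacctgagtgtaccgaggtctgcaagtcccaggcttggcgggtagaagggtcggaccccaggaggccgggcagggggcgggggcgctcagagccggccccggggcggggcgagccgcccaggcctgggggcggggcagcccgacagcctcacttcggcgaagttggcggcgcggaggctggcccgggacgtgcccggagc
Dll1 has another window in the table, which holds no N-box. An N-box stood once in the printed windows of Dll1 and Dll4, 2 times in that of Notch3 and 3 times in that of Notch1, where the last 2 overlap across the start. A window with at least 1 is common, as 42.5% of the 32851 promoters in the table hold it, against 5 of the 9 windows of members. Neither the RBPJ core TGGGAA nor the E-box CACGTG, both read on both strands, is in any of the 9 windows, which belong to 8 members, and 25.6% and 7.15% of all promoters hold them. No motif overlapped another kind. These letters describe windows of 300 bases and nothing beyond them.

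Among the receptors, Notch1 and Notch3 rose in both tumour groups. Notch1, which acts in epithelial progenitors, endothelium and T cells, read 10.64, 10.49, 10.72 and 10.28 in pChePS_GC, 10.31, 10.32 and 10.50 in pCP_GC and 10.02, 10.03, 10.10 and 10.11 in NGE. Every tumour array lay above every NGE array, and the NGE arrays spread over less than 0.1. Notch1 rose by 0.47 in pChePS_GC (SE 0.10, limma adjusted p = 0.00496) and by 0.31 in pCP_GC (SE 0.11, adjusted p = 0.0349). Its rise in pChePS_GC passed in every refit with another fit, scaling, filter or array left out, with adjusted p up to 0.0474, and was below 2-fold. The call in pCP_GC was lost when any 1 of the NGE or pCP_GC arrays was left out, with adjusted p of 0.0542 without pCP_GC replicate 1 to 0.121 without pCP_GC replicate 3, and over all its alternatives the adjusted p ran from 0.0114 to 0.512.

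Notch3, the receptor of vascular mural cells, read 9.08, 8.72, 8.83 and 8.34 in pChePS_GC, 8.29, 8.83 and 8.36 in pCP_GC and 8.10, 7.69, 7.94 and 8.12 in NGE. Again no tumour array reached down to the NGE arrays, although the lowest array of each tumour group stood within 0.3 of the highest NGE array. It rose by 0.78 in pChePS_GC (SE 0.17, adjusted p = 0.00559) and by 0.53 in pCP_GC (SE 0.19, adjusted p = 0.0353). The pCP_GC call was lost without NGE replicate 2 (adjusted p = 0.0854), NGE replicate 3 (0.0704) or pCP_GC replicate 2 (0.15), and over all alternatives the adjusted p ran between 0.0194 and 0.15. The pericyte list moved in the same direction by more. Of its 6 genes 6 rose in pChePS_GC and 4 in pCP_GC, with median changes of 2.60 and 2.23, and Rgs5, a regulator of G protein signalling in pericytes, rose by 3.70 and 4.27. In NGE Rgs5 lay under 7.24, the level that 95% of olfactory and vomeronasal receptor genes stay below, so these are differences from a value not above that background and not exact changes. The summed log2 level of that list was 12.47 to 13.92 in pChePS_GC, 12.35 to 13.58 in pCP_GC and 10.32 to 10.61 in NGE, and its part in the change of Notch3 was not tested.

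Notch4, a receptor found mainly in endothelium, went the other way. It read 9.03, 9.08, 9.65 and 9.25 in pChePS_GC, 9.14, 9.03 and 8.86 in pCP_GC and 9.59, 9.25, 9.34 and 9.48 in NGE. The pCP_GC arrays all lay below NGE, and pChePS_GC replicate 3 was the highest of the 11 arrays. Notch4 fell by 0.41 in pCP_GC (SE 0.15, adjusted p = 0.0411), while pChePS_GC differed from NGE by -0.16 (95% interval -0.47 to 0.14, adjusted p = 0.349). The fall was lost without NGE replicate 1 (adjusted p = 0.101), 3 (0.0601) or 4 (0.0878) and without pCP_GC replicate 1 (0.0505), 2 (0.081) or 3 (0.134), and over all alternatives the adjusted p ran between 0.0034 and 0.134. Notch2, the receptor most often found beside Notch1 in gland epithelium, had overlapping groups, with 10.59, 10.53, 10.99 and 9.97 in pChePS_GC, 10.25, 10.81 and 10.36 in pCP_GC and 9.97, 10.01, 10.06 and 10.29 in NGE. Its changes were 0.43 in pChePS_GC (95% interval -0.001 to 0.87, adjusted p = 0.0959) and 0.39 in pCP_GC (95% interval -0.08 to 0.86, adjusted p = 0.145). Replicate 4 of pChePS_GC was level with the lowest NGE array, and without it the pChePS_GC change of Notch2 was 0.62 and passed (adjusted p = 0.0138, against at most 0.282 with other alternatives).

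Of the ligands, both Delta-like members rose and neither Jagged member passed. Dll1, a Delta-like ligand of progenitor and secretory lineages, read 9.41, 10.29, 9.14 and 8.56 in pChePS_GC, 8.53, 9.09 and 8.63 in pCP_GC and 7.81, 7.71, 8.22 and 7.71 in NGE. No tumour array overlapped with NGE, and the pChePS_GC arrays were the most spread of any member in any group (SD 0.72, n = 4), with replicate 2 the highest and replicate 4 the lowest. Dll1 rose by 1.49 in pChePS_GC, which is 2.81-fold (SE 0.30, adjusted p = 0.00333), and by 0.89 in pCP_GC, which is 1.85-fold (SE 0.33, adjusted p = 0.0415). It was the only member that passed at 2-fold or more, in pChePS_GC, where 10.3% of all genes did. The pCP_GC call was lost without NGE replicate 1 (adjusted p = 0.0795), 2 (0.0847) or 4 (0.0883) and without pCP_GC replicate 1 (0.0573), 2 (0.142) or 3 (0.0695), and over all alternatives the adjusted p ran between 0.00348 and 0.142. The columnar epithelium list, in which the keratin and adhesion genes of gland cells stand, had median changes of -0.12 in pChePS_GC and -0.18 in pCP_GC beside these rises. The list was split. Of its 6 genes 2 rose and 1 fell in pChePS_GC, and 1 rose and 1 fell in pCP_GC. Epcam rose in both, by 0.55 and 0.76.

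Dll4, the Delta-like ligand of endothelial tip cells, read 8.82, 8.73, 9.59 and 9.04 in pChePS_GC, 8.96, 8.84 and 8.62 in pCP_GC and 8.31, 8.09, 8.12 and 8.15 in NGE. The groups stood apart, with pChePS_GC replicate 3 the highest array. It rose by 0.88 in pChePS_GC, or 1.84-fold (SE 0.17, adjusted p = 0.00241), and by 0.64 in pCP_GC, or 1.55-fold (SE 0.18, adjusted p = 0.0141), and the second call was lost without pCP_GC replicate 1 (adjusted p = 0.054, lowest 0.00109 and highest 0.139 with any alternative). Of the 12 genes of the endothelium list 11 rose in each tumour group, with median changes of 2.03 and 1.86, so the change of Dll4 was under the median of the endothelial markers in both. Cdh5, the cadherin of endothelial junctions, rose by 4.21 and 3.92, and Kdr, the main receptor for vascular endothelial growth factor, by 2.26 and 2.28. Both lay under the receptor gene level in NGE, so their differences are not exact changes either. The summed log2 level of the endothelium list was 13.31 to 14.31 in pChePS_GC, 13.14 to 13.68 in pCP_GC and 11.09 to 11.21 in NGE, where 4 of the 12 genes lay under that level. The array with the highest Dll4 was also the one with the highest mean of that list, 10.49 against 9.52 to 9.61 in the other pChePS_GC arrays. In pCP_GC it was the reverse. Replicate 1 had the highest Dll4 of that group (8.96) and the lowest mean of the list, 9.32 against 9.85 and 9.51. Of the 7 arterial and tip cell genes 3 rose and 1 fell in pChePS_GC, and 2 rose and 1 fell in pCP_GC, with medians of 0.47 and 0.56. The part of endothelial cells in the changes of Dll4, Notch4 and Hey1 was not tested.

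The Jagged ligands passed in neither tumour group as deposited. Jag1, which is expressed in epithelium, smooth muscle and endothelium, read 10.22, 10.08, 10.18 and 10.11 in pChePS_GC, 9.90, 10.16 and 10.16 in pCP_GC and 10.27, 10.16, 10.15 and 10.48 in NGE. These 11 values lay within 0.6 of each other, the narrowest spread of the members (SD 0.14 over all arrays). The changes of Jag1 were -0.12 (95% interval -0.33 to 0.10, adjusted p = 0.348) in pChePS_GC and -0.19 (95% interval -0.42 to 0.04, adjusted p = 0.151) in pCP_GC, so a rise of the size seen for Dll4 lay outside both intervals. Jag2, the second Jagged ligand, read 8.93, 8.54, 9.13 and 7.92 in pChePS_GC, 8.60, 8.06 and 8.65 in pCP_GC and 8.73, 8.78, 8.71 and 8.89 in NGE. The pChePS_GC arrays lay on both sides of NGE and the pCP_GC arrays all lay below it. Its changes were -0.15 (95% interval -0.66 to 0.36, adjusted p = 0.62) and -0.34 (95% interval -0.90 to 0.21, adjusted p = 0.266), and the exact permutation test of the second gave p = 0.0286.

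**Figure D2:**
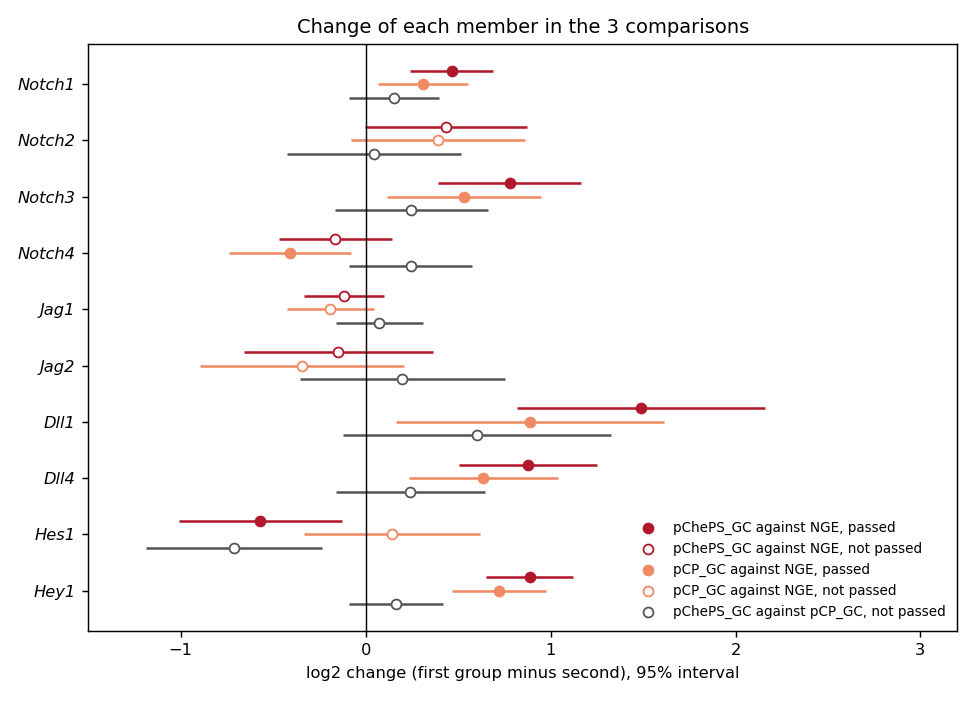
Log2 change of each member with its 95% interval (horizontal axis) in pChePS_GC against NGE, pCP_GC against NGE and pChePS_GC against pCP_GC, with filled points for changes that passed. Dll1, Dll4, Notch1, Notch3 and Hey1 are filled to the right of 0 against NGE in both tumour groups, Hes1 to the left in pChePS_GC and Notch4 to the left in pCP_GC, and every point of the comparison between tumour groups is open.

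Of the targets Hey1 rose in both tumour groups, and Hes1 rose in neither. Hey1, a repressor of the Hairy-related family with a known role in vessels, read 8.20, 8.43, 8.57 and 8.30 in pChePS_GC, 8.32, 8.25 and 8.06 in pCP_GC and 7.61, 7.55, 7.31 and 7.48 in NGE. The lowest tumour array was 0.4 or more above the highest NGE array. Hey1 rose by 0.89 in pChePS_GC, or 1.85-fold (SE 0.11, adjusted p = 0.000123), and by 0.72 in pCP_GC, or 1.65-fold (SE 0.12, adjusted p = 0.000771). It passed in both tumour groups in every refit in which it was measured (another fit, scaling, filter or array left out), with adjusted p of at most 0.00145 and 0.00476, and was below 2-fold in both. Its NGE arrays, at 7.31 to 7.61, lay close above the receptor gene level of 7.24.

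Hes1, the repressor that in mouse intestine and stomach holds back secretory fate genes, read 10.47, 9.93, 10.76 and 9.76 in pChePS_GC, 11.16, 10.70 and 10.97 in pCP_GC and 10.94, 10.75, 10.75 and 10.77 in NGE. Of the 4 pChePS_GC arrays, 3 lay below NGE and replicate 3 lay among the NGE arrays. It fell by 0.57 in pChePS_GC, or 1.48-fold (SE 0.20, adjusted p = 0.0411), while pCP_GC differed from NGE by 0.14 (95% interval -0.33 to 0.62, adjusted p = 0.597). The fall rests on few arrays. It was lost without NGE replicate 1 (adjusted p = 0.0975), 2 (0.0612), 3 (0.0756) or 4 (0.0764), without pChePS_GC replicate 2 (0.109) or 4 (0.0929), without pCP_GC replicate 3 (0.0532) and with the fit of the 2 groups alone (0.0538). Over all alternatives the adjusted p ran between 0.00742 and 0.109, and permuting the arrays over all 70 arrangements (exact, two-sided) gave p = 0.0857.

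Between the tumour groups 0 of the 10 members passed in the limma fit, where 0.366% of all genes did (73 genes, and 26 without NGE replicate 3 to 154 without pCP_GC replicate 2). At an unadjusted limma p under 0.05 there was 1 member of 10, Hes1, where 3294 of all 19938 genes were under it. The exact permutation test gave 0 members under 0.05. Hes1 was 0.71 lower in pChePS_GC than in pCP_GC (SE 0.22, 95% interval -1.19 to -0.24, adjusted p = 0.172), and permuting the arrays over all 35 arrangements (exact, two-sided) gave p = 0.0857, where 0.0286 is the smallest it can give. The 2 groups overlapped at 1 pChePS_GC array, replicate 3. Dll1 was 0.60 higher in pChePS_GC (95% interval -0.12 to 1.33, adjusted p = 0.372). For the other 8 members the difference was between 0.04 and 0.25, and all 8 were higher in pChePS_GC. Of all 19938 genes 11526 were higher there too, with a median difference of 0.04. The intervals of these 8 members reached from -0.43 for Notch2 to 0.75 for Jag2, while that of Jag1 ran from -0.16 to 0.31. Each interval bounds the difference of its own gene only. No member had groups that did not overlap in this comparison, where 13.9% of all genes had such groups.

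Within pChePS_GC the highest and lowest levels of the members often fell on the same arrays. Replicate 3 had the highest level of 7 of the 10 members (Notch1, Notch2, Notch4, Jag2, Dll4, Hes1 and Hey1), and replicate 4 had the lowest level of 6 (Notch1, Notch2, Notch3, Jag2, Dll1 and Hes1). Replicate 3 also had the highest mean level of the pericyte list, 11.07 against 9.75 to 10.13, and of the smooth muscle list, 12.00 against 9.32 to 11.58. Its endothelium and fibroblast means were the highest of the group too, while its macrophage and T cell means were not. Replicate 1 had the highest Notch3 of the group and the lowest pericyte and smooth muscle means. In pCP_GC, replicate 2 had the highest level of Notch2, Notch3, Jag1 and Dll1, and the highest pericyte mean (10.75 against 9.49 and 9.78). That array also had the highest endothelium, smooth muscle, fibroblast, macrophage, T cell and gland cell means of the group. Its columnar, squamous and arterial and tip cell means were the lowest, so the pericyte mean was not particular. Replicate 1 of pCP_GC had the highest level of Notch4, Dll4, Hes1 and Hey1, the lowest level of 5 members and the lowest pericyte mean (9.49). How often genes in general had their highest or lowest level on each array was not counted. What these arrays share was not tested.

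The profile of Dll1, the member that passed at 2-fold or more, was nearest to that of Abcg1, a cholesterol transporter. After each gene's own mean was subtracted, the root-mean-square difference of the 2 profiles over the 11 arrays was 0.20 log2 units, where Dll1 itself had an SD of 0.80. Dusp9, a phosphatase of mitogen-activated protein kinases, followed at 0.28, and Atp11a, a phospholipid flippase, at 0.30, among 18707 genes compared. Abcg1 averaged 10.15 in pChePS_GC, 9.52 in pCP_GC and 8.58 in NGE. The same order of groups as in Dll1 follows from choosing Abcg1 by its nearness.

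The machinery around the members was read from 48 other pathway genes, of which 46 were measured. In pChePS_GC against NGE 14 rose and 7 fell (median 0.01), and in pCP_GC against NGE 9 rose and 11 fell (median 0.07), beside backgrounds of 42.1% and 51.8% called in either direction. Among 9 measured genes of the nuclear complex 4 rose and 1 fell in pChePS_GC, and 3 rose and 1 fell in pCP_GC. Maml2, a Mastermind-like coactivator, had the largest change of the pathway. It read 10.83, 10.71, 9.80 and 9.52 in pChePS_GC, 10.66, 10.50 and 10.61 in pCP_GC and 7.74, 7.66, 7.63 and 7.42 in NGE. That is a rise of 2.61 in pChePS_GC, or 6.09-fold (SE 0.26, adjusted p = 3.24e-05), and of 2.98 in pCP_GC, or 7.89-fold (SE 0.28, adjusted p = 2.73e-05), and the groups did not overlap. Averaged over all its probe sets, Maml2 rose by 1.72 and 1.87. Its relatives Maml1 and Maml3, chosen after their values were seen, had changes of 0.09 and 0.01 in pChePS_GC and of 0.00 and 0.22 in pCP_GC, and passed in neither. Rbpj, the DNA-binding partner of Notch, rose by 0.81 and 0.84 (adjusted p = 0.000784 and 0.000994), and by 0.28 and 0.26 when averaged over all its probe sets (adjusted p = 0.0306 and 0.0451). Cir1, a corepressor that binds RBPJ, rose by 0.58 and 0.56. It did not pass with centring (0.41 and 0.34, adjusted p = 0.0512 and 0.118) or quantile normalisation (0.47 and 0.38, adjusted p = 0.059 and 0.138), nor in pCP_GC without replicate 1 (adjusted p = 0.0562) or replicate 2 (0.0505). Spen, another RBPJ corepressor and chosen after its values were seen as the 1 gene that fell, fell by 0.50 in pChePS_GC and by 0.33 in pCP_GC, where centring gave a fall of 0.55.

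Enzymes that add sugars to the Notch receptor rose in both groups, 4 of 5 in pChePS_GC and 3 of 5 in pCP_GC. Lfng, a Fringe enzyme that changes which ligands a receptor answers to, read 9.04, 9.32, 9.57 and 9.31 in pChePS_GC, 9.31, 10.16 and 9.01 in pCP_GC and 8.30, 7.95, 8.33 and 8.21 in NGE. Its rises were 1.11 in pChePS_GC (adjusted p = 0.00259) and 1.29 in pCP_GC (adjusted p = 0.00145), and no array overlapped. Pofut1, which adds the fucose that Fringe enzymes extend, rose by 0.68 and 0.64, and Poglut1, which adds glucose, by 0.61 and 1.03. With quantile normalisation the rises of Pofut1 were 0.43 and 0.33 and that of Poglut1 in pChePS_GC was 0.40, and all 3 passed. Rfng, a further Fringe enzyme chosen after its values were seen, did not pass (-0.12 and -0.05).

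Of the 9 measured genes that cut the receptor 1 rose and 3 fell in pChePS_GC, and 2 fell in pCP_GC. Furin, the protease of the first cut during receptor maturation, fell by 0.71 in pChePS_GC (adjusted p = 0.01) and by 0.75 in pCP_GC (adjusted p = 0.00805). Psen2, a catalytic subunit of gamma-secretase, fell by 0.47 and 0.64. Its call in pChePS_GC was lost without NGE replicate 1 (adjusted p = 0.0593) or 3 (0.053), and its fall was 0.31 without pChePS_GC replicate 1. Aph1c, another subunit in mouse, fell by 0.64 in pChePS_GC. The 1 that rose, Ncstn, a gamma-secretase subunit chosen after its values were seen, did so by 0.42 in pChePS_GC, and did not pass with centring (0.25, adjusted p = 0.0646). Among 13 ubiquitin ligases and endocytic regulators 5 rose and 1 fell in pChePS_GC, where Dtx4 rose by 1.04, Numbl by 0.86 and Dtx3 by 0.69. Numbl was lost with quantile normalisation (adjusted p = 0.0864) and without NGE replicate 1 (0.0538), and Dtx3 with centring (0.0607) and without any 1 NGE array or pChePS_GC replicate 1 or 3 (0.0572 to 0.0899). In pCP_GC 3 rose and 2 fell, where Dtx3 rose by 0.87, Dtx3l by 0.66 and Mib2, a ligase that acts on Notch ligands, fell by 0.52. Dtx3 there was 0.57 without pCP_GC replicate 2 (adjusted p = 0.057), and Dtx3l did not pass with centring (0.126), quantile normalisation (0.155) or without NGE replicate 3 (0.0784) or 4 (0.0655) or pCP_GC replicate 1 (0.0511) or 3 (0.43, adjusted p = 0.128).

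**Figure D3:**
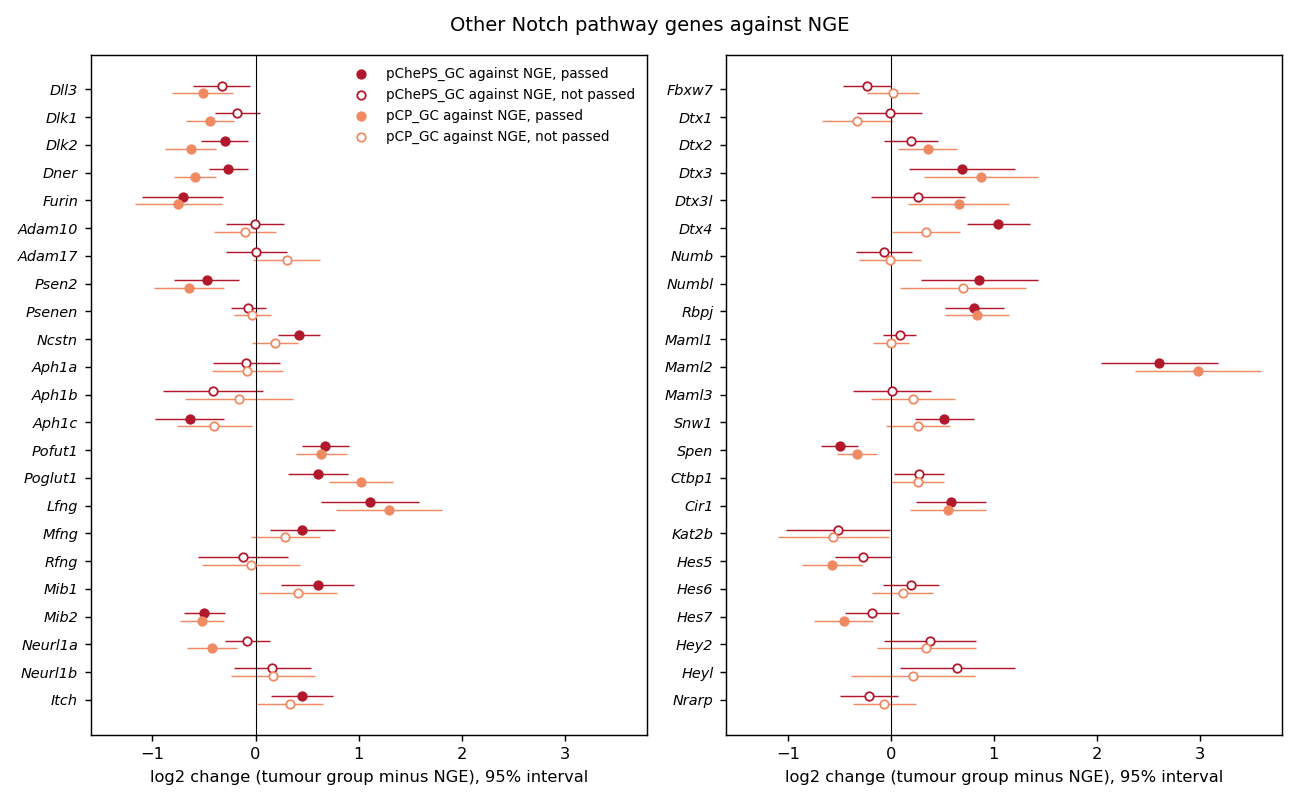
Log2 change with its 95% interval (horizontal axis) of the 46 other pathway genes measured, in pChePS_GC and pCP_GC against NGE, filled where the change passed. Maml2 stands alone beyond 2, and Lfng, Pofut1, Poglut1 and Rbpj are filled to the right of 0 in both groups.

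Of the remaining targets and ligands 0 rose in the limma fit. Of the 6 other target genes (Hes5, Hes6, Hes7, Hey2, Heyl and Nrarp) 0 passed in pChePS_GC in the limma fit, and 2 fell in pCP_GC, Hes5 by 0.57 and Hes7 by 0.46, of which Hes7 was lost without pCP_GC replicate 2 (adjusted p = 0.0546). Heyl, a Hairy-related gene of mural cells chosen after its values were seen, was at 0.64 in pChePS_GC (adjusted p = 0.0605). The 4 atypical or inhibitory ligands fell in pCP_GC, among them Dlk2 by 0.63, Dner by 0.59 and Dll3 by 0.51, and in pChePS_GC Dlk2 fell by 0.30 and Dner by 0.27. Both pChePS_GC calls were lost when single arrays were left out, among them any pChePS_GC array for Dlk2 and pChePS_GC replicates 1, 2 or 3 for Dner, and also NGE replicates 1, 3 or 4 for either (adjusted p up to 0.111 and 0.0878), and with centring the falls were 0.47 and 0.44. Dll3 and Dner lay under the receptor gene level of 6.86 in pCP_GC, and the 1194 receptor genes themselves had median changes of -0.15 and -0.22 in pChePS_GC and pCP_GC.

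Progenitor and secretory fate genes that Notch is known to govern in the gut were mixed. Of the 9 measured, 2 rose and 1 fell in pChePS_GC, and 2 rose and 2 fell in pCP_GC. Olfm4, a marker of progenitors, read 9.15, 8.89, 10.82 and 13.64 in pChePS_GC, 10.69, 8.96 and 11.79 in pCP_GC and 7.99, 8.29, 7.94 and 8.21 in NGE. It rose by 2.52 in pChePS_GC (SE 0.93, adjusted p = 0.0484), and in pCP_GC the change was 2.38 (SE 1.00, adjusted p = 0.0666), with every tumour array above NGE in both. Without pChePS_GC replicate 4 its change in pChePS_GC was 1.51 and did not pass (adjusted p = 0.0716). The call was also lost without pChePS_GC replicate 3, pCP_GC replicate 1 or any 1 NGE array and with quantile normalisation, with adjusted p of 0.0232 to 0.101 over the alternatives. Lgr5, another progenitor marker, rose in pChePS_GC by 1.69 (SE 0.48, adjusted p = 0.0171), while pCP_GC differed from NGE by 1.06 (adjusted p = 0.103). In pCP_GC Sox9, a progenitor transcription factor, rose by 1.15 (adjusted p = 0.00906) and Spdef, a factor of mucous cells, by 0.88 (adjusted p = 0.00424). Bhlha15, a factor of chief cells, fell by 0.85 and 0.88. Atoh1, the secretory fate factor that HES1 represses, was chosen after its values were seen. It read 6.64, 6.33, 6.67 and 9.55 in pChePS_GC, 6.33, 6.05 and 6.36 in pCP_GC and 7.16, 6.82, 7.07 and 7.05 in NGE. The high array is pChePS_GC replicate 4, and the change of the group did not pass (0.27, adjusted p = 0.718). The means of Atoh1 in pCP_GC (6.25) and NGE (7.03) lay under the receptor gene levels of 6.86 and 7.24. In pChePS_GC, where that level was 6.99, its replicates 1, 2 and 3 lay under it as well. Replicate 4 had the lowest Hes1 of the group (9.76) and replicate 2 the next (9.93), and replicate 2 had the lowest Atoh1 (6.33). Neurog3, of the same list and chosen after its values were seen, read 7.59 in replicate 4 against 6.31 to 6.37 in the others. Its mean lay under the receptor gene level in all 3 groups, and it passed in neither tumour group against NGE.

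Markers of other cell types moved with the tumours. In pChePS_GC 6 of 6 smooth muscle genes, 8 of 9 fibroblast genes and 9 of 9 macrophage genes rose (medians 2.98, 3.35 and 3.23), and in pCP_GC 6, 8 and 9 did (medians 3.27, 3.32 and 2.78). Of 7 gland cell genes, which define the lining from which NGE came, 7 fell in pChePS_GC and 4 in pCP_GC (medians -4.49 and -1.84). Their summed log2 level was 13.33 to 14.70 in pChePS_GC, 14.62 to 15.20 in pCP_GC and 16.51 to 16.63 in NGE. That of the columnar epithelium list stayed between 15.52 and 15.97 in all 3 groups. Of 5 T cell genes, a lineage that uses Notch1, 0 rose in the limma fit and 1 fell in either group, with medians of 0.11 and 0.01. In the 8 squamous epithelium genes 2 rose and 1 fell in pChePS_GC, and 1 rose and 1 fell in pCP_GC. The change of most members was smaller than those of the stromal lists, and the part of these cells in the members' changes was not tested.

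**Figure D4:**
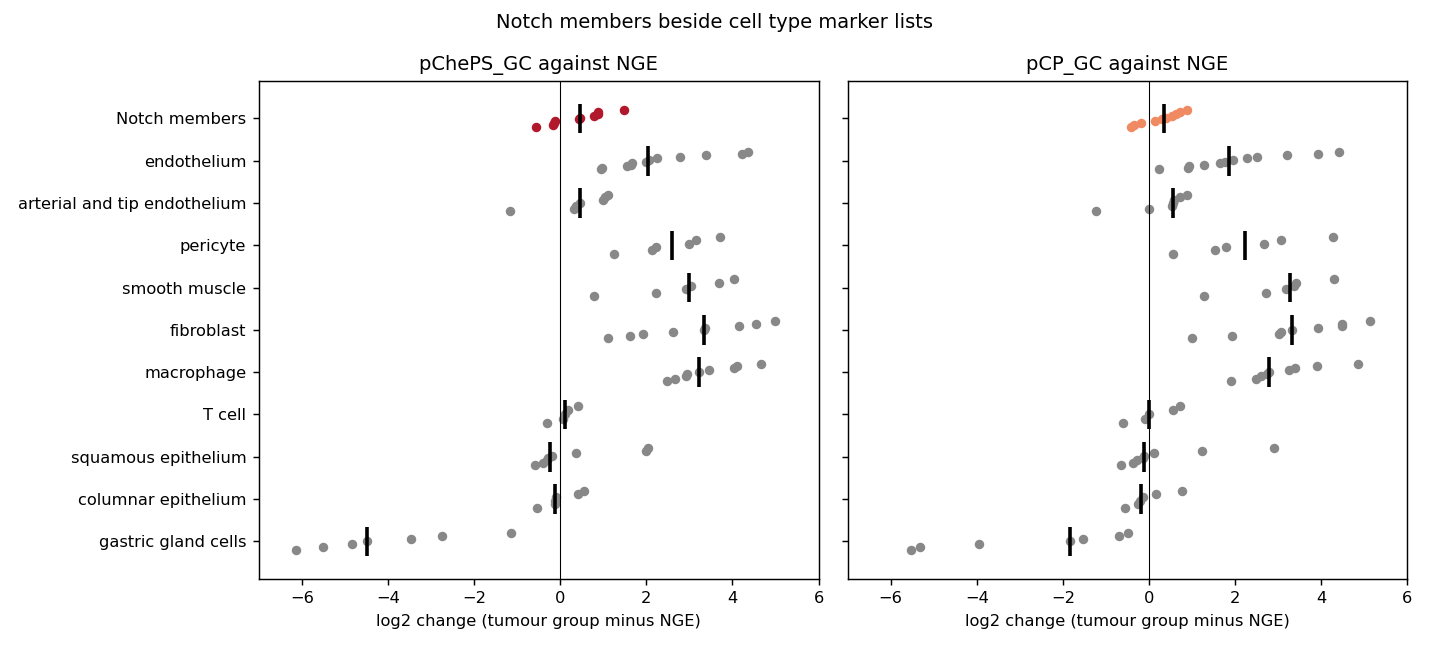
Log2 change against NGE (horizontal axis) of the 10 Notch members and of each gene of 10 marker lists, in pChePS_GC and pCP_GC, with the median of each list as a bar. The member medians (0.45 and 0.35) lie left of those of the endothelium (2.03 and 1.86), pericyte (2.60 and 2.23), smooth muscle, fibroblast and macrophage lists and near those of the arterial and tip cell list (0.47 and 0.56).

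The scaling of the arrays decided most calls in pCP_GC and few in pChePS_GC. When each array was centred on its median, the changes of all genes moved by -0.175 in pChePS_GC against NGE and by -0.214 in pCP_GC against NGE. The median change of all genes was then -0.272 in pChePS_GC, against -0.097 as deposited, and -0.33 in pCP_GC, against -0.117. Centring the arrays thus did not centre the changes. In pChePS_GC Dll1, Dll4, Notch1, Notch3 and Hey1 still rose and Hes1 still fell, and Notch4 and Jag1 fell as well (-0.34 and -0.29, adjusted p = 0.0476 and 0.0319). In pCP_GC 1 member then rose, Hey1 (0.51), and 2 fell, Notch4 and Jag1 (-0.62 and -0.40). Notch1, Notch3, Dll1 and Dll4 did not pass there, at 0.10, 0.32, 0.67 and 0.42 (adjusted p = 0.512, 0.147, 0.082 and 0.0574). Quantile normalisation gave the same members in each direction as centring in pCP_GC. Over all genes the split was 2695 higher and 9101 lower with centring, against 3728 and 4658 as deposited, in pChePS_GC, and 2686 and 9716, against 3994 and 6343, in pCP_GC.

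**Figure D5:**
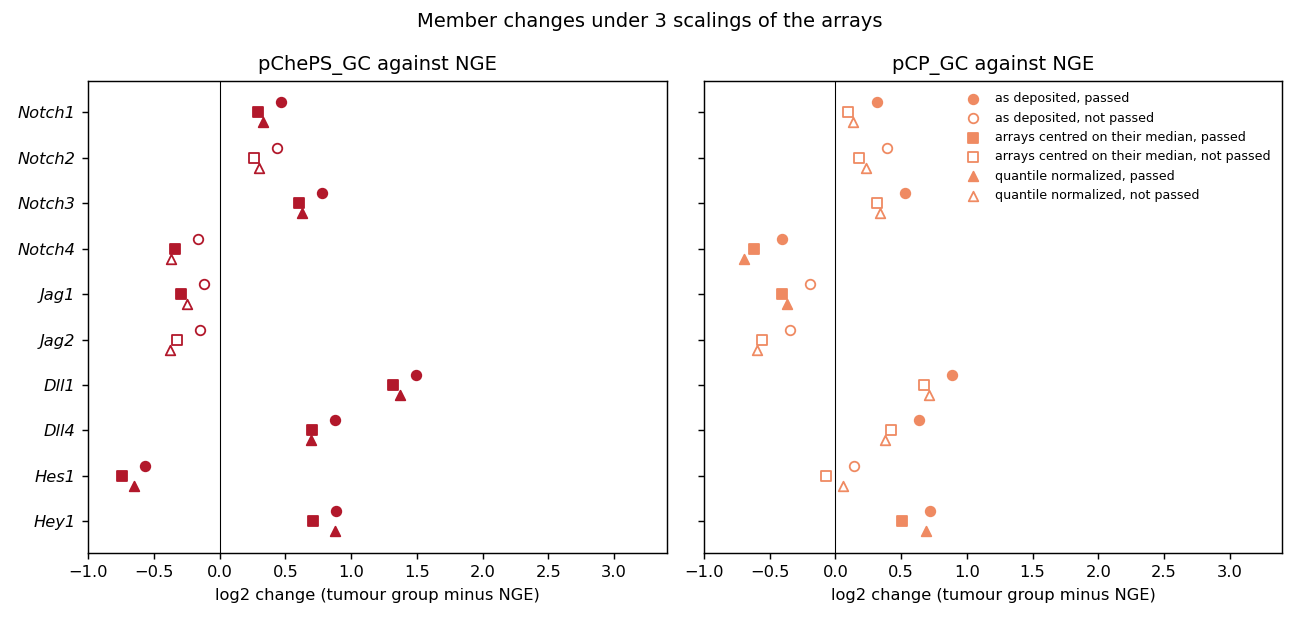
Log2 change of each member against NGE (horizontal axis) with the values as deposited, with arrays centred on their median and after quantile normalisation, filled where the change passed. In pCP_GC only Hey1 and Notch4 are filled under all 3 scalings, and in pChePS_GC Notch1, Notch3, Dll1, Dll4, Hes1 and Hey1 are.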

How the data were processed

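Biotin-labelled total RNA of 11 mouse stomach samples was read on Affymetrix arrays, per the labels' protocols. The authors deposited normalized log2 signals, 1 for each probe set of an array. The unit was inferred from their range of 2.88 to 14.56. The submitters' processing notes name the software (Affymetrix Expression Console). Not given in the sources used here are its version and the algorithm. Normalization and background correction weigh most on dim probe sets.

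Of 35556 probe sets, the platform annotation gives 1 symbol to 21789, several to 1621 and none to 12146. A gene with several single-symbol probe sets was read from the one of highest mean. Group means were estimated by limma 3.58.1 (R 4.3.3) from the 11 arrays together, with two-sided tests and Benjamini-Hochberg adjustment over 19938 genes, and the fit was tested on simulated data. Named genes are the members, up to 3 pathway or fate genes of largest change per role and comparison among those that passed, and the 3 nearest profiles of each member changed by 2-fold. The members and lists were chosen with earlier results of these data known. Alternatives changed the variance prior, arrays fitted, scaling, dim-gene filter, probe set summary, array weights, replicate block, thresholds and arrays, each left out in turn. For pathway and fate genes they were added after the data were seen.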

Additional observations from a re-analysis of the deposited data

Results flagged for a closer look

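In each gene, an array was looked for that stood far from the others of its group of 4, over the members and the named pathway and fate genes in pChePS_GC and NGE. Of 74 checks 6 stood out, at a limit that chance passes about 1 time in 20. The genes checked included Atoh1, Ncstn and Spen, chosen after their values were seen, and Atoh1 gave 1 of the 6. The count is therefore not a test against chance. Some genes named in the text, such as Maml1, Maml3, Rfng, Heyl and Neurog3, were not checked. Among the members the 1 case was Hes1 in NGE, where replicate 1 read 10.94 against 10.75 to 10.77 in the other arrays.

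In pChePS_GC, Atoh1 read 9.55 in replicate 4 against 6.33 to 6.67 in the others, Psen2 read 8.66 in replicate 1 against 9.27 to 9.35, and Dlk2 read 7.95 in replicate 2 against 8.12 to 8.14. In NGE, Poglut1 read 9.55 in replicate 2 against at most 9.03, and Bhlha15 read 7.88 in replicate 4 against 8.48 to 8.54.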

How the results depend on the processing

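In pChePS_GC against NGE the 6 members called became 5 to 6 when 1 array was left out, 8 with centring and 1 at a change of 2-fold or more. In pCP_GC against NGE the 6 called members became 2 to 6 when 1 array was left out, 3 with centring, 3 with quantile normalisation, 3 without the dimmest 50% of genes, 1 at an adjusted p under 0.01 and 0 at 2-fold or more. Between the tumour groups 0 members were called under any alternative run. Replicate numbers are shared between groups, and same-numbered arrays deviated together with r between -0.155 and 0.156, so the numbers do not pair the arrays. With the replicate block 2 members were called in pCP_GC against NGE, 6 in pChePS_GC against NGE and 0 between tumour groups.

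Signs turned for some changes that were not called. Hes1 in pCP_GC against NGE was -0.071 with centring. When 1 array was left out, Jag2 in pChePS_GC against NGE ran from -0.31 to 0.089, Notch2 between the tumour groups from -0.11 to 0.23 and Jag1 between them from -0.011 to 0.12. The cause was not tested.

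The other pathway genes called numbered 21 in pChePS_GC against NGE, with 11 at an adjusted p under 0.01 and 3 at 2-fold, and 20 in pCP_GC against NGE, with 13 without the dimmest 50% and 3 at 2-fold. Array weights gave 29, 30 and, between tumour groups, 1 in place of 0, as did quantile normalisation there. Over all genes, the 8386 calls in pChePS_GC became 4881 without the dimmest 50%, 4411 at an adjusted p under 0.01 and 2057 at 2-fold. The 10337 calls in pCP_GC became 4611, 6682 and 2185 under the same settings. The 73 calls between tumour groups became 31, 12 and 42, and 188 with array weights, 0 with the replicate block and 0 with the groups fitted alone. Hey1 was too dim to remain without the dimmest 50%. With 3 or 4 arrays a group and the spread of its values, the changes of Notch2 as deposited could not be told from 0.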
